A study of Mus musculus with 6 samples.

Results

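The genes described here are the components of the NF-kB pathway, its inhibitors, and the cytokines and chemokines that are its usual outputs in dendritic cells. They were chosen by gene symbol from a list of 47 genes, of which 46 had a row among the 14788 genes of the count table; Il23a is not analysed here. Of these, 33 were pathway components and inhibitors and 13 were cytokines or chemokines. RNA was sequenced from type-2 conventional dendritic cells (cDC2s) of the spleen, a dendritic cell subset known above all for priming CD4 T cells. There were 3 libraries from Arhgef1-/- cells and 3 from WT cells, all on a C57BL/6 background, with no treatment, age or sex given in the labels, which also do not say how the cells were isolated. Arhgef1 encodes an exchange factor that activates the GTPase RhoA downstream of receptors coupled to G12 and G13 proteins; the labels give neither the deleted part of the gene nor whether it was lost in all cells of the mouse.

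NF-kB is a family of dimeric transcription factors held in the cytoplasm by IkB proteins. Toll-like receptors, C-type lectins and TNF-family receptors act through adaptors, TRAF proteins and the IKK kinase complex, which marks IkB for destruction and releases the dimers into the nucleus. Among the genes that NF-kB switches on are its own inhibitors, which end the response, and the cytokines and chemokines by which dendritic cells instruct T cells and recruit leukocytes.

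Total counts per library were 8408325 to 11714365 in Arhgef1-/- cells and 8546267 to 10702215 in WT cells. The labels place all Arhgef1-/- libraries in lane 2 and all WT libraries in lane 1, under different run names, so lane and genotype cannot be told apart. Arhgef1 itself, counted over the whole gene, had 115, 128 and 144 CPM (read counts scaled for library size) in Arhgef1-/- libraries, against 287, 317 and 246 CPM in WT libraries (log2 fold change -1.13 ± 0.11, SE; edgeR adjusted p = 6.96e-06). All 16 cDC markers examined had a row in the table; the integrin gene Itgax averaged 1262 ± 91.0 CPM in Arhgef1-/- and 1406 ± 53.0 CPM in WT cells (SD, n = 3 each). Of the 15 that were tested, 7 fell (edgeR adjusted p under 0.05), or 46.7%, against 4.58% of all tested genes. Fitted log2 changes were negative for 14 of the 15 and ranged from -1.59 to 0.01. The 16 markers summed to 16840 to 18030 CPM in Arhgef1-/- and 20000 to 22090 CPM in WT libraries. Of 19 tested macrophage markers, 14 fell, or 73.7%, against the same 4.58%. The 21 listed summed to 559 to 705 CPM in Arhgef1-/- and 1051 to 1509 CPM in WT libraries. The labels do not tell whether each library is a different mouse; every p-value below therefore reflects library-to-library spread, part or all of which may be technical.

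Of the 44 members with enough counts to be tested, 1 rose in Arhgef1-/- cells, 3 fell and 40 did not pass the test. Nfkb1, the precursor of the p50 subunit, rose. Tnfaip3, which encodes the feedback inhibitor A20, fell, as did the chemokine genes Ccl5 and Cxcl9. A call here is a Benjamini-Hochberg adjusted p under 0.05 in edgeR's quasi-likelihood test, adjusted over all 11504 genes tested. The members' share of calls was 9.09%, against 9.67% of all tested genes, and the share whose Arhgef1-/- values did not overlap the WT values was 20.5%, against 27.2% of all tested genes. The members' share of calls was close to that over all tested genes. An unadjusted p under 0.05 was reached by 9 members, or 20.5%, against 22.3% of all tested genes.

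The split between pathway and outputs was as follows. Among 33 pathway members 1 rose and 1 fell, or 6.06%, with a median log2 fold change of -0.05; among 11 tested cytokines and chemokines 0 rose and 2 fell, or 18.2%, with a median of 0.19. The median over all tested genes was 0.00, and calls over all genes were 5.09% higher and 4.58% lower. The outputs' median changed sign without Arhgef1-/- replicate 1, to -0.15, and was 0.00 without WT replicate 3. No member called by edgeR as higher was a cytokine or chemokine; 3 of these 11 had an unadjusted p under 0.05, and DESeq2 and limma-voom likewise called 0 higher and 2 lower. DESeq2 called 7 members in all, adding Bcl3 (higher, adjusted p = 0.0323), Chuk (lower, adjusted p = 0.0399) and Irak4 (lower, adjusted p = 0.0441) to the same 4 genes.

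**Figure D1:**
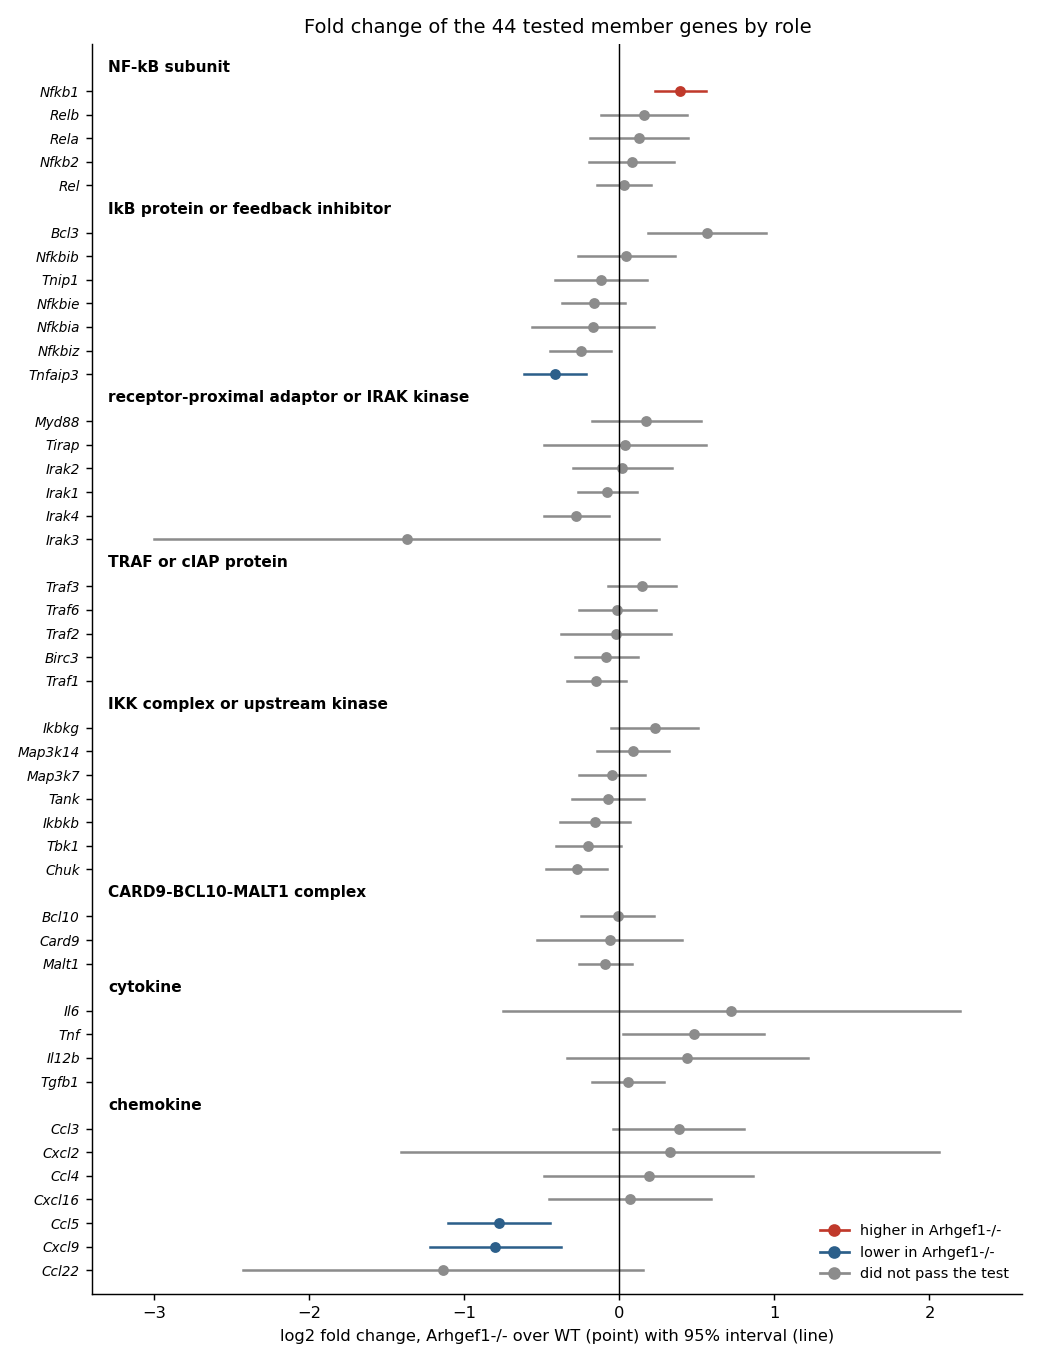
Fitted log2 fold change of each tested member, Arhgef1-/- over WT (points), with its 95% interval (lines), grouped by role; values above 0 are higher in Arhgef1-/- cells. Nfkb1 (0.39) is the coloured point right of 0, Tnfaip3 (-0.42), Ccl5 (-0.77) and Cxcl9 (-0.80) are the coloured points left of it, and the low-count genes Irak3, Il6, Cxcl2 and Ccl22 have the widest intervals.

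The 5 NF-kB subunits were all expressed, with fitted changes between 0.03 and 0.39, and 1 of them was called. Nfkb1 (mm10 chromosome 3, positions 135584655 to 135691547, minus strand) had 655, 645 and 712 CPM in Arhgef1-/- libraries, against 475, 531 and 526 CPM in WT libraries. Every Arhgef1-/- library lay above every WT library. The means were 671 ± 36.1 CPM in Arhgef1-/- and 511 ± 30.9 CPM in WT cells (SD, n = 3 each), a log2 difference of 0.39 ± 0.08 (SE; edgeR adjusted p = 0.00353), and the call held under all 14 alternative settings, with values of 0.34 to 0.42. Since the RNA came from many cells at once, a change in the share of cells that express a gene and a change in its RNA per cell cannot be told apart, here and below.

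Rel, which encodes the c-Rel subunit, was the most abundant subunit transcript for its length. Scaled by the length of its exons, Rel stood at 126 CPM per kb in Arhgef1-/- and 123 CPM per kb in WT cells, above Nfkb1 at 55.6 CPM per kb in Arhgef1-/- and 42.4 CPM per kb in WT cells. By library, Rel had 852, 950 and 1017 CPM in Arhgef1-/- and 1002, 921 and 837 CPM in WT cells. The groups overlapped, and the 95% interval of the log2 fold change ran from -0.15 to 0.21. Relb, the partner of p52 in the non-canonical pathway, had a log2 difference of 0.16 (interval -0.12 to 0.43). For Rela, which encodes the transactivating subunit p65, it was 0.13 (-0.19 to 0.44), and for Nfkb2, the precursor of p52, 0.08 (-0.20 to 0.35).

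The IkB proteins and feedback inhibitors divided in direction without more than 1 call. Of 7 genes, 1 fell and 6 did not pass; 5 had negative and 2 positive fitted changes. Tnfaip3 (chromosome 10, positions 19000910 to 19015657, minus strand), whose product A20 edits ubiquitin chains and shuts off NF-kB signalling, had 162, 145 and 155 CPM in Arhgef1-/- libraries, against 213, 209 and 193 CPM in WT libraries. No Arhgef1-/- library reached the lowest WT library. The means were 154 ± 8.45 CPM in Arhgef1-/- and 205 ± 10.6 CPM in WT cells (SD, n = 3 each), a log2 difference of -0.42 ± 0.09 (SE; edgeR adjusted p = 0.00853). Without WT replicate 1 the change was -0.39 and the call was lost (adjusted p = 0.0555).

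The promoter of Tnfaip3 is shown because A20 is a textbook target of NF-kB. The window runs from 250 bases before to 50 bases after the gene start in RefSeq (GRCm38.p6, chr10:19015361-19015660, minus strand), and capitals mark matches to the 10-base kappaB consensus on either strand, which begin at -125 and -12 with the start base counted as 0.
Tnfaip3: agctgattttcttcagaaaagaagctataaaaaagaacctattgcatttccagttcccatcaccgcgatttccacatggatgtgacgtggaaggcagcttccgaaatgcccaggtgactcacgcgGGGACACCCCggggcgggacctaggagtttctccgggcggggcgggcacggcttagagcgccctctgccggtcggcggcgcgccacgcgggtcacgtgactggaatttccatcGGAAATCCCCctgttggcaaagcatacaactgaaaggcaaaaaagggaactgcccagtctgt
A second RefSeq start of Tnfaip3 had no match in its window.

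Promoters were read for 37 members, and none for Nfkb1, Relb, Nfkbiz, Ikbkb, Malt1, Il23a, Il10, Ccl4, Ccl5 and Cxcl16. The kappaB consensus was found in at least 1 promoter of 13 of them, against 5.14% of the 27025 genes in the table of promoters, and in 5 of 6 IkB and feedback inhibitor genes. It was in 11 of 28 pathway members and in 2 of 9 cytokines and chemokines, Il6 and Cxcl2. To compare with Tnfaip3, the other 4 of that role are shown at their matched bases, in the orientation of the gene (GRCm38.p6).
Nfkbia: GGAAATTCCC
Nfkbie: GGGGGATTCC
Bcl3: GGGAAGTCCC
Tnip1: GGGAATTCCC
They lie at chr12:55492667-55492676 for Nfkbia, chr17:45555594-45555603 for Nfkbie, chr7:19822744-19822753 for Bcl3 and chr11:54962988-54962997 for Tnip1, where 4 matches overlap one another. None of these 4 genes passed the test. Their letters differ from both Tnfaip3 matches; what they share with it is a match to the consensus. A match is a string of letters and not a measured binding site.

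Bcl3, an atypical IkB that works in the nucleus with p50 or p52 dimers, had the largest positive change of its role. It had 50.1, 69.2 and 93.3 CPM in Arhgef1-/- libraries, against 52.2, 41.9 and 49.8 CPM in WT libraries. Arhgef1-/- replicate 1 lay within the WT values and replicates 2 and 3 above them. The log2 fold change was 0.57 ± 0.18 (SE; edgeR adjusted p = 0.0569), and it was past the threshold in 5 of 14 alternatives, among them DESeq2 and the fit without Arhgef1-/- replicate 1 (0.76, adjusted p = 0.00589). Exons of Bcl3 overlap those of Gm16175 on the other strand, and the strand setting of the counting is unknown.

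Nfkbiz encodes IkBzeta, a nuclear IkB needed for secondary response genes such as Il6 in mouse macrophages. Its values were 344, 280 and 341 CPM in Arhgef1-/- libraries, against 356, 407 and 384 CPM in WT libraries, without overlap. It did not pass the test, with a log2 difference of -0.25 ± 0.09 (SE; edgeR adjusted p = 0.109). Per length, Nfkbie was the most abundant of this role, at 75.2 CPM per kb in Arhgef1-/- and 84.5 CPM per kb in WT cells; its log2 fold change was -0.17 (interval -0.37 to 0.04). Nfkbia, the classical IkBalpha made soon after NF-kB enters the nucleus, varied widely within both groups, with 83.9, 50.1 and 75.1 CPM in Arhgef1-/- and 78.6, 58.0 and 98.9 CPM in WT libraries. The groups overlapped (log2 fold change -0.17, interval -0.56 to 0.22). Nfkbib, another cytoplasmic IkB, stood at 0.04 (-0.27 to 0.36), and Tnip1, a binding partner of A20, at -0.12 (-0.42 to 0.18).

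**Figure D2:**
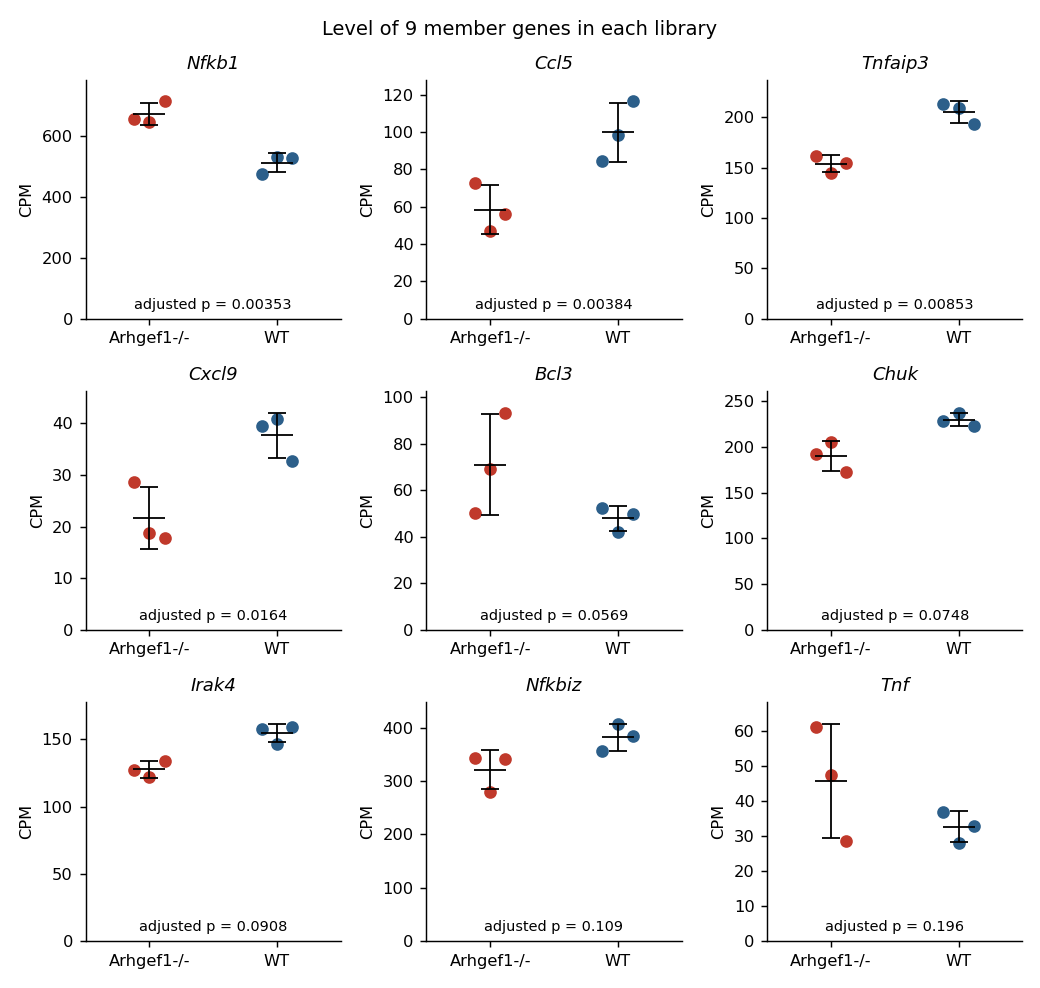
CPM of the 9 members with an unadjusted p under 0.05, in order of p, with a point for each Arhgef1-/- and WT library (replicates 1 to 3 from left to right) and bars for the mean and SD. The groups do not overlap for Nfkb1, Ccl5, Tnfaip3, Cxcl9, Chuk, Irak4 and Nfkbiz, and overlap for Bcl3 and Tnf, whose Arhgef1-/- values have the widest relative spread.

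Among the adaptors and IRAK kinases that link Toll-like and interleukin-1 receptors to NF-kB, edgeR called 0 of 6, with 1 at an unadjusted p under 0.05; DESeq2 called 1 and limma-voom 0. That gene was Irak4, the first kinase of the complex, with 127, 122 and 134 CPM in Arhgef1-/- libraries, against 158, 147 and 160 CPM in WT libraries. The groups did not overlap, and the log2 fold change was -0.28 ± 0.10 (SE; edgeR adjusted p = 0.0908). Its exons overlap those of Twf1 on the other strand. Irak1, the kinase that Irak4 acts on, was the most abundant of this role per length, at 53.8 CPM per kb in Arhgef1-/- and 56.7 CPM per kb in WT cells (log2 fold change -0.08, interval -0.27 to 0.11). Myd88, the shared adaptor, averaged 47.1 ± 4.50 CPM in Arhgef1-/- and 41.9 ± 8.99 CPM in WT cells (SD, n = 3 each; interval -0.18 to 0.53), and the bridging adaptor Tirap and the kinase gene Irak2 had changes of 0.04 and 0.02. Irak3, an inhibitory IRAK, was near the limit of detection, with 18, 5 and 2 counts in Arhgef1-/- and 14, 25 and 24 counts in WT libraries, and its interval of -3.00 to 0.26 leaves its change undetermined at this depth.

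The TRAF ubiquitin ligases and adaptors and the cIAP2 gene Birc3 gave 0 calls of 5, and none had an unadjusted p under 0.05 in edgeR or a call in DESeq2 or limma-voom. Traf1 and Birc3, both known NF-kB targets, were the most abundant per length. Traf1 stood at 54.6 CPM per kb in Arhgef1-/- and 60.5 CPM per kb in WT cells, and Birc3 at 56.9 CPM per kb in Arhgef1-/- and 60.3 CPM per kb in WT cells. Their intervals ran from -0.34 to 0.04 for Traf1 and from -0.29 to 0.12 for Birc3 on the log2 scale. Traf3, which holds the non-canonical kinase NIK in check, had a change of 0.15 (-0.07 to 0.36), and Traf2 and Traf6 had changes of -0.02 and -0.01.

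In the IKK complex and its upstream kinases, edgeR called 0 of 7 with 1 at an unadjusted p under 0.05, DESeq2 1 and limma-voom 0. Chuk, which encodes IKKalpha, had 193, 206 and 172 CPM in Arhgef1-/- libraries, against 229, 238 and 224 CPM in WT libraries. The groups did not overlap; the log2 fold change was -0.27 ± 0.09 (SE; edgeR adjusted p = 0.0748). Ikbkb, the gene of the canonical kinase IKKbeta, and Tbk1, an IKK-related kinase of the interferon response, also had all 3 Arhgef1-/- values below the WT values, at changes of -0.16 (-0.38 to 0.07) and -0.20 (-0.41 to 0.01). For 13.5% of all tested genes the Arhgef1-/- values likewise lay wholly below. Ikbkg, the regulatory subunit NEMO, had 71.4, 67.9 and 67.8 CPM in Arhgef1-/- and 53.5, 68.4 and 55.0 CPM in WT libraries (0.23, -0.05 to 0.51); its exons overlap those of G6pdx on the other strand. Map3k7, the kinase TAK1, stood at -0.05, Tank, a scaffold of Tbk1, at -0.08 and Map3k14, the kinase NIK, at 0.09.

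The CARD9-BCL10-MALT1 complex carries signals from C-type lectins such as Dectin-1 to IKK. None of its 3 genes was called by edgeR, DESeq2 or limma-voom, and 0 had an unadjusted p under 0.05. Malt1 was the most abundant of them, at 35.7 CPM per kb in Arhgef1-/- and 38.0 CPM per kb in WT cells, with an interval of -0.26 to 0.08. Bcl10 had 21.7 CPM per kb in Arhgef1-/- and 21.9 CPM per kb in WT cells (-0.25 to 0.23). Card9 had 24.8, 33.8 and 16.9 CPM in Arhgef1-/- and 24.8, 28.6 and 25.2 CPM in WT libraries (-0.53 to 0.41).

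Summed over each role, the subunit transcripts were 1712 to 1970 CPM in Arhgef1-/- and 1570 to 1672 CPM in WT libraries. The IkB and feedback inhibitor transcripts were 868 to 1026 CPM in Arhgef1-/- and 1048 to 1144 CPM in WT libraries, and the IKK and upstream kinase transcripts 878 to 934 CPM in Arhgef1-/- and 977 to 982 CPM in WT libraries. The receptor-proximal adaptor and IRAK transcripts were 491 to 498 CPM in Arhgef1-/- and 499 to 552 CPM in WT libraries. In these 4 of the 8 sums the groups did not overlap, though the adaptor sums nearly met, at 498 and 499 CPM. The subunit sum was higher in Arhgef1-/- libraries. The sums of the IkB and feedback inhibitor genes, the IKK kinases and the adaptors were lower. The TRAF, CARD9 complex, cytokine and chemokine sums overlapped between the groups. The sums weigh long and abundant genes most, so 1 gene can carry the gap of a whole role, and they were not tested. No share of such gaps over other sets of genes is given. Gene by gene, the groups did not overlap for 1 of 5 subunits (Nfkb1) and 2 of 7 IkB proteins and feedback inhibitors (Tnfaip3 and Nfkbiz). They also did not overlap for 3 of 7 IKK and upstream kinases and 1 of 6 adaptors and IRAK kinases (Irak4). Over all tested genes, taken singly, the share without overlap was 27.2%.

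**Figure D3:**
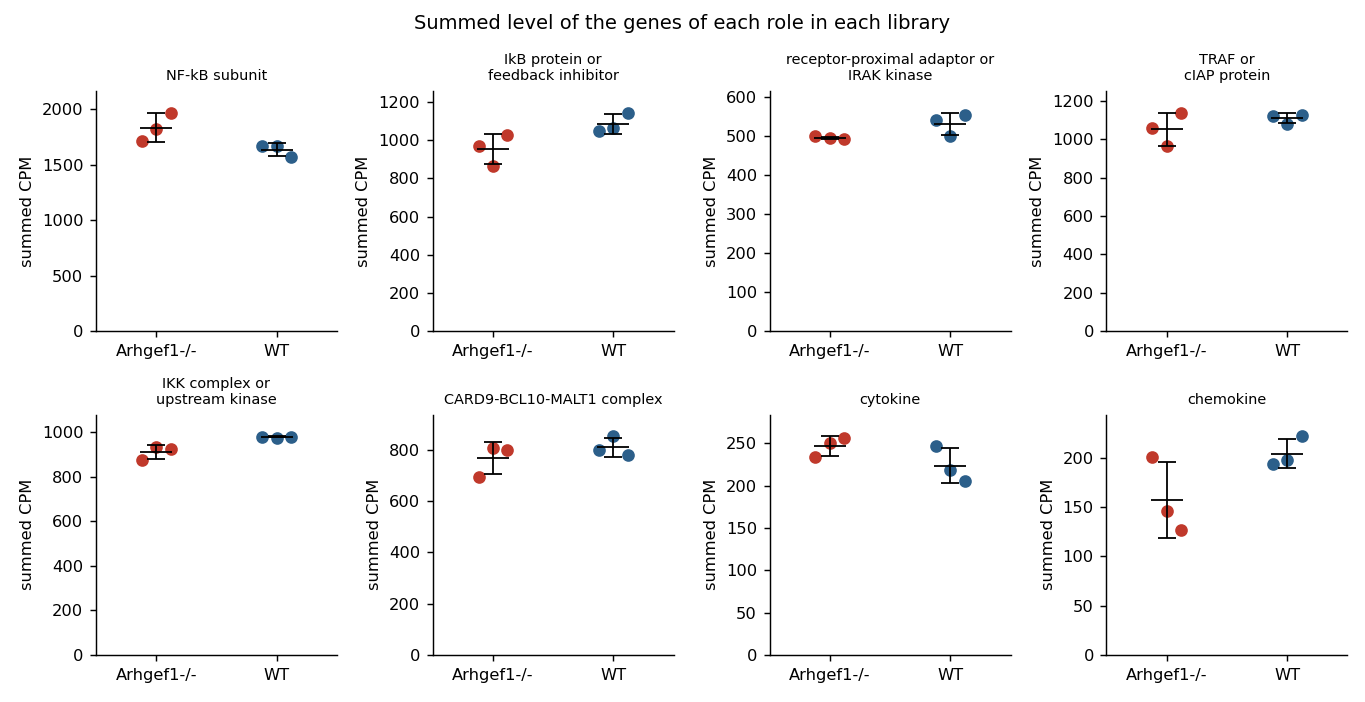
Summed CPM of the members of each role, with a point for each Arhgef1-/- and WT library (replicates 1 to 3 from left to right) and bars for the mean and SD. The subunit sum lies at 1712 CPM or more in Arhgef1-/- libraries, above every WT library, and the chemokine sum spans 126 to 201 CPM in Arhgef1-/- and 194 to 222 CPM in WT libraries.

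Of the 6 cytokine genes 4 were tested, and edgeR called 0, with 1 at an unadjusted p under 0.05; DESeq2 and limma-voom also called 0. All 4 had positive fitted changes. Tnf, the inflammatory cytokine that both induces and follows NF-kB, had 61.3, 47.5 and 28.7 CPM in Arhgef1-/- libraries, against 37.1, 28.1 and 33.0 CPM in WT libraries. Arhgef1-/- replicates 1 and 2 lay above all WT libraries and replicate 3 among them. The log2 fold change was 0.48 ± 0.22 (SE; edgeR adjusted p = 0.196), and without Arhgef1-/- replicate 3 it was 0.73 and was called (adjusted p = 0.0193).

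Tgfb1, an anti-inflammatory cytokine gene, was the most abundant cytokine member. It averaged 191 ± 27.9 CPM in Arhgef1-/- and 183 ± 16.1 CPM in WT cells (SD, n = 3 each), with an interval of -0.18 to 0.29. Per length, it stood at 37.8 CPM per kb in Arhgef1-/- and 36.4 CPM per kb in WT cells. Il12b, the p40 chain shared by IL-12 and IL-23, was low, at 8.03, 11.9 and 5.97 CPM in Arhgef1-/- and 9.29, 5.07 and 4.60 CPM in WT libraries (interval -0.34 to 1.22). Il6 had 8, 17 and 26 counts in Arhgef1-/- and 15, 3 and 10 counts in WT libraries (-0.75 to 2.20). The anti-inflammatory Il10 had 3, 5 and 0 counts in Arhgef1-/- and 5, 4 and 4 counts in WT libraries, too few to be tested.

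Among 8 chemokine genes 7 were tested; 2 fell and 5 did not pass. Ccl5 (RANTES, chromosome 11, positions 83525778 to 83530518, minus strand), which attracts T cells and other leukocytes, had 72.4, 46.8 and 55.9 CPM in Arhgef1-/- libraries, against 84.7, 98.2 and 116 CPM in WT libraries. The highest Arhgef1-/- library, replicate 1, lay below the lowest WT library. Its means were 58.4 ± 13 CPM in Arhgef1-/- and 99.7 ± 15.9 CPM in WT cells (SD, n = 3 each), a log2 difference of -0.77 ± 0.16 (SE; edgeR adjusted p = 0.00384). This call held in all 14 alternatives (-0.95 to -0.64). Ccl5 was the most abundant chemokine member for its length, at 60.8 CPM per kb in Arhgef1-/- and 104 CPM per kb in WT cells.

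Cxcl9 (chromosome 5, positions 92321347 to 92328079, minus strand), which attracts CXCR3-bearing T cells and is known mainly as an interferon-gamma target, had 28.6, 18.8 and 17.7 CPM in Arhgef1-/- libraries, against 39.6, 40.9 and 32.7 CPM in WT libraries. Here too the groups did not overlap. The means were 21.7 ± 6.00 CPM in Arhgef1-/- and 37.7 ± 4.41 CPM in WT cells (SD, n = 3 each), with a log2 difference of -0.80 ± 0.20 (SE; edgeR adjusted p = 0.0164). The call was lost without Arhgef1-/- replicate 2 (-0.71), Arhgef1-/- replicate 3 (-0.67), WT replicate 1 (-0.76) or WT replicate 2 (-0.74).

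The promoter of Cxcl9 is shown as the other called member with a sequence at hand (RefSeq, GRCm38.p6, chr5:92328030-92328329, minus strand). It held no match to the kappaB consensus. Capitals mark matches, beginning at -130 and -42, to a shorter core, GGGNNTTCC on either strand, which overlaps the consensus. This core was chosen after the promoter had been seen, so its presence here follows from that choice. Of genes in the table, 6.58% held the core, a share given for scale and not as a test.
Cxcl9: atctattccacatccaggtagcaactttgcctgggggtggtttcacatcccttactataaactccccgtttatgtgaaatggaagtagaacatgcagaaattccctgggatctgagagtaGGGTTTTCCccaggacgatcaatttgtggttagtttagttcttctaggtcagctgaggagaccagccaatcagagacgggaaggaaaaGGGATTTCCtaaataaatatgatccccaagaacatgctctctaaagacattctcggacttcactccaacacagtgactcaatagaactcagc

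Markers of some other cells also differed between the groups. The macrophage sum was 705, 559 and 562 CPM in Arhgef1-/- replicates 1, 2 and 3, against 1509, 1191 and 1051 CPM in WT replicates 1, 2 and 3. Of the Arhgef1-/- libraries, replicate 1 had the highest macrophage sum, Ccl5 and Cxcl9. Among WT libraries the macrophage sum was highest in replicate 1, Ccl5 in replicate 3 and Cxcl9 in replicate 2. With 3 libraries per group, these orders were not tested. Ccl5 is made by NK and T cells too. The 11 NK cell markers with a row summed to 180 to 221 CPM in Arhgef1-/- and 226 to 239 CPM in WT libraries. Most of these reads came from Klrd1, with 1055 to 1320 counts in Arhgef1-/- and 1573 to 1780 counts in WT libraries, while the defining NK gene Ncr1 had 4 to 19 counts in Arhgef1-/- and 2 to 16 counts in WT libraries and Nkg7 had 0 counts in every Arhgef1-/- library and 1 to 18 counts in WT libraries. Of 6 tested NK cell markers, 1 was called higher and 1 lower, or 33.3%, and 4 had positive fitted changes. T cell markers summed to 115 to 212 CPM in Arhgef1-/- and 111 to 140 CPM in WT libraries. Of 8 tested T cell markers, 1 was called higher and 0 lower, or 12.5%. Of 11 tested monocyte markers, 0 were called higher and 3 lower, or 27.3%. Monocyte markers summed to 1402 to 1474 CPM in Arhgef1-/- and 1529 to 1780 CPM in WT libraries. Of 12 tested cDC1 markers 2 were called lower, or 16.7%, and of 7 plasmacytoid markers 1 higher, or 14.3%. B cell, erythroid and neutrophil markers had 0 calls. The share over all tested genes was 9.67%. The part of macrophage, monocyte and NK cell RNA in the chemokine values was not tested.

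Ccl3 and Ccl4, inflammatory chemokines that lie within the same cluster on chromosome 11 as Ccl5 (positions 83647844 to 83649355 and 83662584 to 83664683), were not called. Ccl3 had 39.2, 39.0 and 25.6 CPM in Arhgef1-/- libraries, against 26.6, 21.4 and 31.4 CPM in WT libraries (log2 fold change 0.38, interval -0.04 to 0.81). For Ccl4 the values were 24.3, 18.4 and 8.44 CPM in Arhgef1-/- and 11.7, 12.9 and 20.2 CPM in WT libraries (0.19, -0.49 to 0.86). In both genes, as in Tnf, Arhgef1-/- replicate 3 was the lowest of its group. The interval of Ccl3 did not overlap that of Ccl5, which ended at -0.45, though the difference between these genes was not tested.

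The remaining chemokines were weakly expressed. Cxcl16, which is membrane-bound and also acts as a scavenger receptor, had 31.8, 21.1 and 15.1 CPM in Arhgef1-/- and 26.1, 18.9 and 19.5 CPM in WT libraries (interval -0.45 to 0.59). Ccl22, a ligand of CCR4 made by mature dendritic cells, had 11, 10 and 18 counts in Arhgef1-/- and 30, 38 and 11 counts in WT libraries (-2.43 to 0.15). Cxcl2, a neutrophil attractant, ranged from 1 to 26 counts in Arhgef1-/- and from 5 to 25 counts in WT libraries. Ccl17, the other CCR4 ligand, had 0, 7 and 2 counts in Arhgef1-/- and 2, 1 and 0 counts in WT libraries and was not tested. At this depth the changes of Ccl22 and Cxcl2 were left undetermined, and nothing can be said of Ccl17.

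Further genes of the pathway were read from the same fit. Of 53 tested NF-kB pathway genes outside the members, such as TAB, LUBAC and receptor genes, 0 rose and 1 fell, or 1.89% against 9.67% of all tested genes, with a median of -0.06. The gene that fell was Zc3h12a, which encodes the RNase Regnase-1 that degrades cytokine mRNA, at 27.9, 24.1 and 27.2 CPM in Arhgef1-/- libraries, against 40.3, 72.0 and 33.9 CPM in WT libraries. The groups did not overlap, but the change of -0.88 ± 0.22 (SE; edgeR adjusted p = 0.0168) became -0.49 and was not called without WT replicate 2, and was also not called without Arhgef1-/- replicate 2 (-0.82).

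Of 36 other genes listed here as NF-kB targets, 1 rose and 6 fell, with a median of -0.15. Ripk2 stands both in this list and in the pathway list above. These calls were 19.4% of the list, against 9.67% of all tested genes, and 16.7% of the list fell, against 4.58% of all tested genes. This list, like the other lists, was chosen with earlier results of these data known. The shares therefore describe the list and are not a test of NF-kB targets. Ptgs2, the inducible cyclooxygenase gene, had 464, 443 and 513 CPM in Arhgef1-/- libraries, against 687, 623 and 740 CPM in WT libraries (-0.53 ± 0.09, SE; edgeR adjusted p = 5.16e-04). The costimulatory gene Cd86 had 106, 85.4 and 81.9 CPM in Arhgef1-/- libraries, against 137, 140 and 127 CPM in WT libraries (-0.57 ± 0.12). Neither gene's groups overlapped, and both calls held in all 14 alternatives. The other falls were Junb, an AP-1 subunit gene (-0.59 ± 0.13), Pde4b, a cAMP phosphodiesterase gene (-0.31 ± 0.08), the anti-apoptotic Bcl2a1b (-0.40 ± 0.12), whose reads may be shared with near-identical copies, and the transcription factor gene Irf1 (-0.38 ± 0.12); the error of each is an SE. Each lost its call without at least 1 library: Junb without WT replicate 3 (-0.50), Pde4b without Arhgef1-/- replicate 1 (-0.28) or 2 (-0.28) or WT replicate 1 (-0.28) or 3 (-0.30), Bcl2a1b without any single library (-0.44 to -0.32), and Irf1 without any single library (-0.43 to -0.28) but Arhgef1-/- replicate 2, where it held (-0.47). Bcl2a1b and Irf1 were also not called with total counts (-0.37 and -0.34), and Bcl2a1b was not called without a filter on low counts (-0.40). Exons of Junb overlap those of Prdx2 on the other strand, and exons of Irf1 those of Gm17334, with the strand setting of the counting unknown. Fscn1, which encodes the actin bundler fascin of mature dendritic cells, was called higher (0.89 ± 0.25, SE; edgeR adjusted p = 0.0303) although its groups overlapped; it was not called by DESeq2 (adjusted p = 0.174) or limma-voom (adjusted p = 0.0504), nor without Arhgef1-/- replicate 1 (0.67) or 3 (0.79) or WT replicate 2 (0.74) or 3 (0.75).

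In 18 tested cytokine genes outside the members 0 rose and 2 fell, with a median of -0.30. The share called by edgeR, 11.1%, was near the 9.67% of all tested genes. Other measures lay further from all tested genes. An unadjusted p under 0.05 was reached by 8 of the 18, against 22.3% of all tested genes. The groups did not overlap for 38.9%, against 27.2%, and 14 of the 18 had negative fitted changes. DESeq2 called 4 lower, adding Il16 and Tnfsf14, and limma-voom called the same 2 as edgeR. Il1b, the NF-kB-driven precursor of IL-1beta, had 382, 386 and 485 CPM in Arhgef1-/- libraries, against 759, 709 and 1030 CPM in WT libraries. The groups did not overlap (-0.995 ± 0.12, SE, with an edgeR adjusted p = 4.59e-05). Exons of Il1b overlap those of Il1bos on the other strand. Il18, which like Il1b is matured by inflammasomes, had 13.5, 13.1 and 12.7 CPM in Arhgef1-/- libraries, against 22.9, 25.5 and 25.0 CPM in WT libraries (-0.90 ± 0.20, SE; edgeR adjusted p = 0.00878). Both calls held in all 14 alternatives. Tnf and Il6 had positive fitted changes (0.48 and 0.72), but neither passed the test and the groups overlapped for both. Il6 had only 3 to 26 counts per library. The difference of these 2 genes from Il1b and Il18 was not tested.

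**Figure D4:**
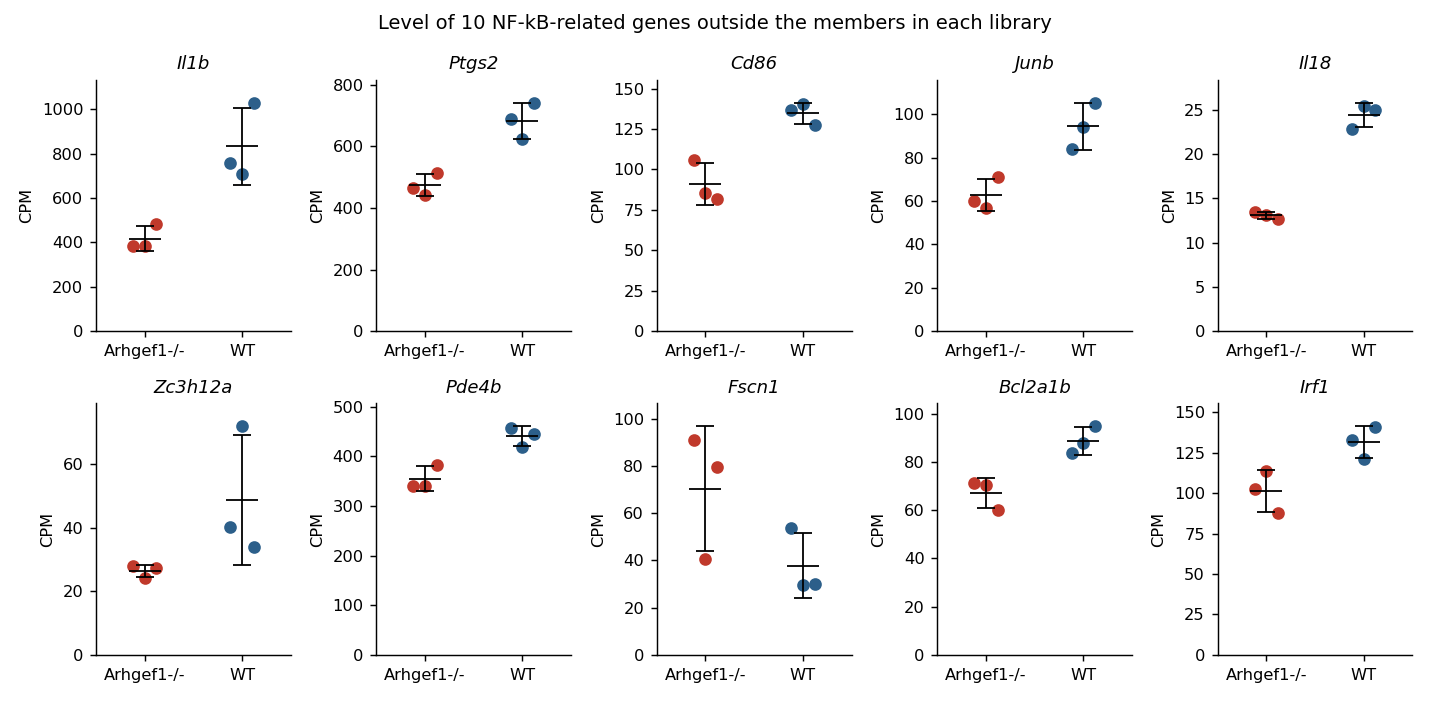
CPM of the 10 called genes of the other NF-kB pathway, target and cytokine lists, in order of p, with a point for each Arhgef1-/- and WT library (replicates 1 to 3 from left to right) and bars for the mean and SD. The Arhgef1-/- values lie below the WT values for every gene but Fscn1, whose groups overlap.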

How the data were processed

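Raw read counts per gene symbol were deposited by the authors for 6 libraries, as whole numbers with no normalization; STAR, HTSeq and DESeq2 and the build mm10 are listed, without versions, in the submitters' processing notes. Annotation and strand setting: not given in the sources used here. Counts of all 6 libraries were fitted with edgeR 4.0.16 (R 4.3.3): filterByExpr left 11504 of 14788 genes, TMM factors scaled the libraries, and the quasi-likelihood test took genotype as its term, with adjustment over all tested genes. CPM use TMM-scaled totals; Each SE is the absolute log2 change over the square root of F. CPM per kb divide by the union of all annotated exons in GENCODE vM21 (mm10), which need not be the authors' annotation. Exons of 11 members overlap a gene on the opposite strand. Promoters are RefSeq's, on GRCm38.p6. The procedure was tested on simulated data that held no lane effect, so that test cannot speak to lane. The members, roles and other lists were chosen with earlier results of these data known. Every member is accounted for; called members and those with an unadjusted p under 0.05 have values by library, and called genes of the other lists are named. Replicates of a group differed beyond counting noise (chi-square per gene 7.88 to 13.4). Alternatives were other scaling factors, no or a stricter filter (5 CPM in 3 libraries), DESeq2 1.42.0, limma-voom (limma 3.58.1), a replicate block and leaving out each library.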

Additional observations from a re-analysis of the deposited data

How the results depend on the processing

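Arhgef1, Nfkb1 and Ccl5 kept their direction and call in all 14 alternatives. Tnfaip3 kept its call in 13 and Cxcl9 in 10. Pathway members called higher were 2 with DESeq2, total counts, no filter or a stricter filter, and 1 to 2 when a library was left out; the second was Bcl3. Pathway members called lower were 3 with DESeq2, and 0 to 1 when a library was left out. Cytokines and chemokines called higher were 0 to 1 (Tnf, without Arhgef1-/- replicate 3) and those called lower 1 to 2 when a library was left out. The medians then ranged from -0.05 to -0.02 for the pathway and from -0.15 to 0.30 for the outputs. Over all genes, 310 to 583 were then called higher and 264 to 489 lower; the counts dropped by more than 1.5 times without WT replicate 1 (334 and 264), WT replicate 2 (310 and 315), WT replicate 3 (383 and 351) or Arhgef1-/- replicate 2 (319 and 311). Libraries with the same replicate number did not deviate together (correlations across genes of 0.04, -0.03 and -0.03). No shared effect of the number was seen, but this cannot show whether the samples were paired. With the replicate number as a block, 496 genes were called higher and 449 lower. The same 4 members kept their calls, while Bcl2a1b (-0.40) and Irf1 (-0.38) lost theirs.

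Some members that were never called changed sign. With total counts these were Traf2 (0.00976), Traf6 (0.0201) and Bcl10 (0.0201), with upper-quartile factors Irak2 (-0.00502), and with limma-voom Cxcl2 (-0.303) and Cxcl16 (-0.0408). Leaving out single libraries gave values of -0.040 to 0.189 for Nfkb2, -0.033 to 0.100 for Rel, -0.348 to 0.027 for Nfkbia, -0.00395 to 0.089 for Nfkbib, -0.247 to 0.032 for Tnip1, -0.136 to 0.212 for Tirap, -0.094 to 0.151 for Irak2, -0.113 to 0.112 for Traf2, -0.093 to 0.079 for Traf6, -0.163 to 0.016 for Tank, -0.086 to 0.00442 for Map3k7, -0.340 to 0.166 for Card9, -0.073 to 0.070 for Bcl10, -0.056 to 0.158 for Tgfb1, -0.150 to 0.521 for Ccl4, -0.375 to 1.121 for Cxcl2 and -0.246 to 0.296 for Cxcl16. The cause of these moves was not tested. Depth limits Il10, Ccl17, Irak3, Il6, Cxcl2 and Ccl22, each with under 40 counts in every library.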

Other observations

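Chemokine genes outside the members were scarce in these cells. Of 29 listed, 17 had a row in the table and 5 had enough counts to be tested. None was called by edgeR, DESeq2 or limma-voom, and 0 had an unadjusted p under 0.05 in edgeR, with 1 in limma-voom. Cxcl10, an interferon-induced ligand of CXCR3 like Cxcl9, had 15.3, 21.8 and 12.8 CPM in Arhgef1-/- libraries, against 25.1, 19.6 and 24.5 CPM in WT libraries (log2 fold change -0.48 ± 0.23, SE; edgeR adjusted p = 0.232). Arhgef1-/- replicate 2 lay among the WT values. The monocyte attractant Ccl2 had 0, 1 and 15 counts in Arhgef1-/- and 4, 0 and 1 counts in WT libraries. Cxcl10 and the genes named here were chosen after their values were seen.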
